A study of Mus musculus with 96 samples.

Results

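The transcripts of 10 genes that set the pace of the G1 phase of the cell cycle were followed by RNA-seq in C2C12 cells, a mouse muscle precursor line, treated with inhibitors of mitochondrial respiration. The genes are the D-type cyclins Ccnd1, Ccnd2 and Ccnd3, their kinases Cdk4 and Cdk6, the E-type cyclins Ccne1 and Ccne2, and the cyclin-dependent kinase (CDK) inhibitors Cdkn1b, Cdkn2c and Cdkn2d. They were matched by gene symbol in a count table of 54150 entries, and all 10 were found and passed the filter on low counts in all 6 models.

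The 96 samples fall into 35 conditions, 26 with 3 libraries and 9 with 2. Myoblasts grew in 10% serum and carried a lentiviral transgene switched on with 300 ng/ml doxycycline for 24 hr before treatment. The transgene was luciferase in the control line, LbNOX (a bacterial NADH oxidase that works in the cytosol), mitoLbNOX (the same enzyme sent to mitochondria) or NDI1 (a yeast NADH dehydrogenase that stands in for complex I). Each line received DMSO or an inhibitor for 10 hr, namely 0.5 µM piericidin against complex I, 0.5 µM antimycin against complex III or 1 µM oligomycin against ATP synthase. The LbNOX line received all 3 inhibitors, the mitoLbNOX line piericidin and antimycin, and the NDI1 line, with 2 libraries per condition, piericidin alone. Control and LbNOX myoblasts were also given 20 µg/ml chloramphenicol, which blocks mitochondrial protein synthesis, or DMSO for 48 hr with uridine, in 2 libraries each. Myotubes had spent 4 days in 2% horse serum and carried no transgene, except for sets given adenoviral GFP (2 libraries per condition) or LbNOX. Untransduced myotubes received DMSO or any of the 3 inhibitors, the uncoupler BAM15 at 0.5 µM, or 5% oxygen overnight and during treatment, and oligomycin was also combined with piericidin, with BAM15 and with 5% oxygen. The GFP and LbNOX myotubes received DMSO, piericidin or oligomycin, without antimycin, and so did a last set, which had spent 24 hr in the low-serum medium after confluence. Myoblasts therefore differ from the low-serum cells and myotubes in doxycycline, the luciferase transgene, serum and density as well as in state, and these cannot be told apart. The labels do not say that replicates came from separate cultures, so p-values measure the spread between these samples, which may be technical.

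D-type cyclins bind CDK4 or CDK6 when growth signals are present, and the complexes phosphorylate the retinoblastoma protein. That frees E2F transcription factors, which switch on cyclin E genes and the genes of DNA replication. Cyclin E with CDK2 then drives the cell into S phase. The INK4 proteins, p18 (Cdkn2c) and p19 (Cdkn2d) among them, bind CDK4 and CDK6 and keep the D-type cyclins off, while p27 (Cdkn1b) binds cyclin-CDK complexes and blocks cyclin E with CDK2. Muscle precursors leave this cycle for good before they fuse, and cyclin D3 is known to stay on in differentiated muscle, where cyclin D1 is lost.

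In the GENCODE annotation of the mouse build GRCm38, Ccnd1 (ENSMUSG00000070348) lies at chr7:144929931-144939925 on the minus strand, and Ccne1 (ENSMUSG00000002068) lies on the same chromosome and strand at chr7:38097984-38107534. Ccnd2 (ENSMUSG00000000184) is at chr6:127125162-127152193 on the minus strand and Cdkn1b (ENSMUSG00000003031) at chr6:134920401-134925513 on the plus strand. Ccnd3 (ENSMUSG00000034165) spans chr17:47505051-47599691 on the plus strand and has 16 coding transcripts. Cdk4 (ENSMUSG00000006728) is at chr10:127063534-127067920 and Cdk6 (ENSMUSG00000040274) at chr5:3341485-3531008, both on the plus strand. Ccne2 (ENSMUSG00000028212) is at chr4:11191351-11204779 on the plus strand, Cdkn2c (ENSMUSG00000028551) at chr4:109660876-109667189 on the minus strand, and Cdkn2d (ENSMUSG00000096472) at chr9:21288410-21291407 on the minus strand.

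Since Ccne1 and Ccnd3 take opposite paths between myoblasts and myotubes, the 100 bases upstream of the outermost annotated start of each are shown from RefSeq sequence of GRCm38.p6, with GC boxes (GGGCGG, either strand) in capitals. The first is on the minus strand at chr7:38107535-38107634 and the second on the plus strand at chr17:47504951-47505050.
Ccne1: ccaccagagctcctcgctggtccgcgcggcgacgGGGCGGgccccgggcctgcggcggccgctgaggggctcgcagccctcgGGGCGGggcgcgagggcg
Ccnd3: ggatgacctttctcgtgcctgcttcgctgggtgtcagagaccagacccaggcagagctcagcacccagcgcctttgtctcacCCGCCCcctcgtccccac
The Ccne1 stretch holds 85 G or C bases and 2 GC boxes, and the Ccnd3 stretch 65 and 1. RefSeq promoter windows, from 250 bases before to 50 bases after a start, were at hand for 7 members, 9 windows in all, with none for Ccnd1, Ccnd2 and Ccne2. A GC box stood in 7 of the 9, against 35.7% of 32851 mouse promoters. The E2F words TTTCGCGC, TTTGGCGC, TTTCCCGC and TTTGCCGC, searched on both strands, were in 0 of the 9 windows (2.26% of promoters), and so was TGATGNAA, the core read by the stress factors CHOP and ATF4 (3.97% of promoters). The GC box was searched after the data were seen, and the absence of a word says only that those letters are not in these windows.

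Totals ran from 6458295 to 15366745 counts per library, with a median of 10336588.5. Each transgene was counted in no condition outside those labelled for it, apart from eGFP in LbNOX myotubes. LbNOX and mitoLbNOX share 1 entry of the table, so these counts cannot tell those lines apart. Markers of the labelled states were read under DMSO, and not all went the way of the labels. The mean level of the proliferation marker Mki67 went from 110 CPM (counts scaled to library size with TMM) in control myoblasts to 12.9 in myotubes under DMSO. In the same order myogenin (Myog) went from 0.427 to 746 and muscle creatine kinase (Ckm) from 0.225 to 549. In 24 hr cells Mki67 averaged 18.8 CPM, Myog 1450 and Ckm 572. Myh3 averaged 1820 CPM in 24 hr cells and 1940 in myotubes, and Acta1 5910 and 6110. Tnnt3 (534 and 1070) and Mb (47.3 and 352) were lower in 24 hr cells than in myotubes. The myoblast marker Myod1 averaged 123 CPM in myoblasts, 201 in 24 hr cells and 156 in myotubes. Myf5 averaged 11, 17.5 and 8.86 CPM in that order. Of 12 markers of endothelial cells, leukocytes, adipocytes and neurons, the 11 other than Tubb3 did not exceed 6.04 CPM in any library. Their sum ran from 4.1 to 4.7 CPM under DMSO in control myoblasts, 3.02 to 4.71 with piericidin, 6.55 to 7.97 with antimycin and 2.69 to 3.98 with oligomycin, with Cdh5, Adipoq, Lep, Rbfox3 and Snap25 at 0 under DMSO. The macrophage marker Cd68 rose with antimycin (log2 fold change 2.65, edgeR adjusted p = 4.26e-07). The other leukocyte markers, Adgre1 and Ptprc, did not exceed 0.363 and 1.01 CPM in any library, and Adgre1 was at 0 with antimycin. With Tubb3 the sums were 31.8 to 35 CPM under DMSO, 121 to 132 with piericidin, 56 to 62.8 with antimycin and 43.1 to 52.1 with oligomycin, and the part of these transcripts in the results below was not tested.

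Levels of different genes are compared only per kilobase of the principal transcript. In control myoblasts under DMSO, Cdk4 stood highest at 178 CPM per kilobase, followed by Ccnd3 at 70.5, Ccnd1 at 58.8 and Ccne1 at 40.3. Cdkn2d (26.9) and Ccne2 (25.9) came next, then Ccnd2 (9.59) and Cdk6 (9.54), with Cdkn1b (3.19) and Cdkn2c (2.19) last. In myotubes Ccnd3 stood first at 279 CPM per kilobase, Cdk4 was at 78.9 and Cdkn2d at 16.9, and the other 7 members lay between 2.55 (Cdkn2c) and 5.55 (Ccne1). These levels carry no correction for reads that members share with neighbours on the opposite strand, and Smart-seq2 libraries do not mark strand. Exon bases are shared by Ccnd1 with Oraov1 (1100 bases), Cdk4 with Tspan31 (641), Ccne2 with Ints8 (609), Ccnd3 with Bysl (361), Ccnd2 with Gm43126 (372) and 9330179D12Rik (368), and Cdk6 with Gm17590 (368), so values of these 6 members are uncertain to that extent. Ccne1, Cdkn1b, Cdkn2c and Cdkn2d share no exon base with another gene.

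Across all 35 conditions, each member had its own range of mean level, given as mean ± SD, and for the lowest and the highest condition it is said whether its libraries overlapped those of the condition next in order. Ccnd1 went from 9 ± 0.526 CPM in myotubes with oligomycin and BAM15 (not overlapping myotubes with BAM15) to 266 ± 12.9 CPM in LbNOX myoblasts with antimycin (not overlapping LbNOX myoblasts with chloramphenicol). Ccnd2 ran from 15.9 ± 1.24 CPM in LbNOX myotubes under DMSO (overlapping LbNOX myotubes with piericidin) to 201 ± 1.93 CPM in control myoblasts with oligomycin (not overlapping control myoblasts with piericidin). For Ccnd3 the range was from 55.2 ± 5.74 CPM in control myoblasts with piericidin (not overlapping control myoblasts with antimycin) to 657 ± 28 CPM in myotubes with oligomycin in 5% oxygen (not overlapping myotubes under DMSO). Lowest and highest Ccnd1 thus sat in myotubes and myoblasts and those of Ccnd3 the other way round. Cdk4 ranged from 156 ± 3.14 CPM in myotubes with BAM15 (overlapping myotubes with oligomycin and BAM15) to 442 ± 7.13 CPM in control myoblasts with piericidin (overlapping control myoblasts with antimycin). Cdk6 extended from 25.2 ± 1.97 CPM in myotubes in 5% oxygen (overlapping myotubes with BAM15) to 122 ± 7.03 CPM in LbNOX myoblasts under 48 hr of DMSO (overlapping control myoblasts with oligomycin). Ccne1 went from 4.66 ± 1.08 CPM in myotubes in 5% oxygen (overlapping myotubes with oligomycin in 5% oxygen) to 95.1 ± 5.27 CPM in LbNOX myoblasts with antimycin (overlapping LbNOX myoblasts under DMSO). Both E-type cyclins and Ccnd1 had their highest mean in LbNOX myoblasts with antimycin. Ccne2 spanned from 2.91 ± 1.15 CPM in 24 hr low-serum cells with oligomycin (overlapping myotubes with antimycin) to 95.4 ± 6.18 CPM in LbNOX myoblasts with antimycin (not overlapping NDI1 myoblasts under DMSO). The range of Cdkn1b was from 6.06 ± 0.352 CPM in mitoLbNOX myoblasts with antimycin (not overlapping control myoblasts with oligomycin) to 31.4 ± 1.95 CPM in myotubes with BAM15 (not overlapping myotubes with oligomycin and BAM15). Cdkn2c stayed low throughout, from 2.47 ± 1.06 CPM in control myoblasts with antimycin (overlapping control myoblasts with oligomycin) to 9.2 ± 1.35 CPM in myotubes with oligomycin and BAM15 (overlapping myotubes with BAM15). Cdkn2d reached from 9.63 ± 0.283 CPM in mitoLbNOX myoblasts with antimycin (not overlapping 24 hr low-serum cells with oligomycin) to 43.5 ± 3.66 CPM in LbNOX myoblasts under DMSO (overlapping LbNOX myoblasts under 48 hr of DMSO).

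**Figure D1:**
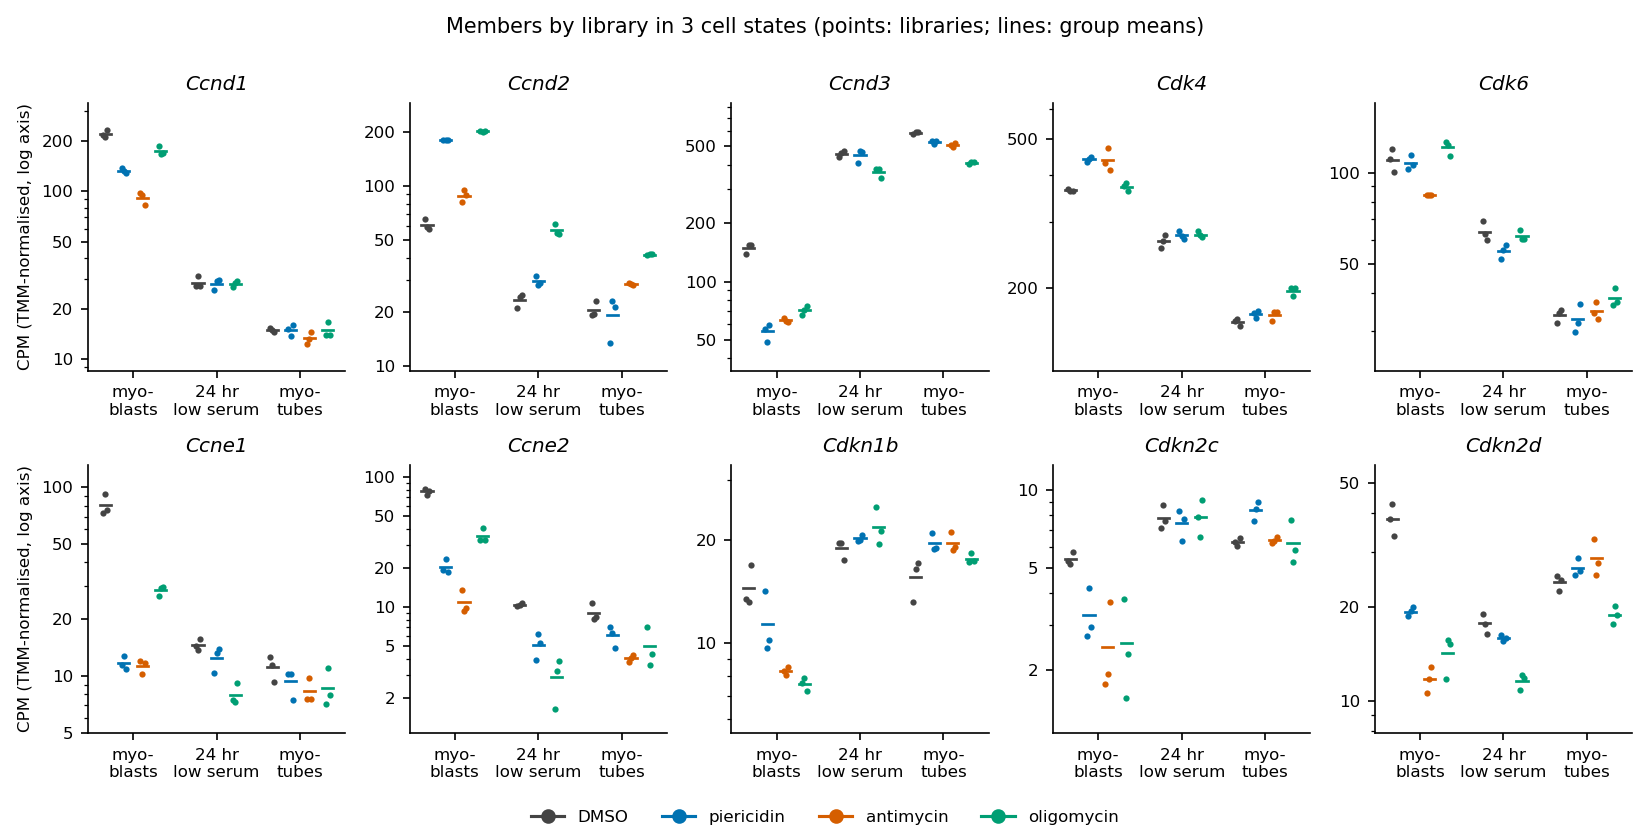
Level of each of the 10 members (1 panel each) in control myoblasts, 24 hr low-serum cells and untransduced myotubes (x axis), in CPM on a log axis (y axis), with colors for DMSO, piericidin, antimycin (not given to 24 hr cells) and oligomycin, points for the 3 libraries of a condition and short lines for their means. Under DMSO Ccnd3 stood at 149 CPM in myoblasts and 589 in myotubes, while Ccnd1 stood at 220 and 15.

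The comparison of states under DMSO asks how the members differ between control myoblasts, 24 hr low-serum cells and myotubes. The muscle markers Ckm, Myh3 and Acta1 already stood near myotube level in 24 hr cells. From control myoblasts to 24 hr low-serum cells, edgeR's quasi-likelihood test called 10 of the 10 members (3 higher and 7 lower), against 63.6% of all genes tested. Myotubes against control myoblasts gave 8 of the 10 members (1 higher and 7 lower), against 69.4% of all genes tested, and myotubes against 24 hr cells 5 of the 10 members (2 higher and 3 lower), against 35.6% of all genes tested. A value after ± is the SD for a level and the standard error for a log2 fold change. Where leaving out a library changed a call, the log2 fold change and edgeR adjusted p without it are given, as ranges over the libraries named. Calls that changed with another setting of the analysis are given with the adjusted p under it. These settings were the size factors or the Wald test of DESeq2, no filter on low counts, a fit of only the groups compared, and a term for outer or inner wells or for the replicate number as a block. In bulk RNA, fewer cells with a transcript and less of it per cell cannot be told apart. The 12 markers of other cell types summed to 31.8 to 35 CPM in control myoblasts, 40.8 to 45.6 in 24 hr cells and 40.4 to 42.5 in myotubes, and without Tubb3 to 4.1 to 4.7, 2.49 to 4.33 and 2.85 to 3.19. Tubb3 was higher than in control myoblasts in 24 hr cells (log2 fold change 0.39) and myotubes (0.48), and Cd68 lower in 24 hr cells (-1.20). Adgre1 and Adipoq were at 0 in 24 hr cells, and the part of these transcripts was not tested.

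Ccnd1 measured 216.5, 212 and 232.5 CPM in control myoblasts, 27.1, 31.5 and 27.3 in 24 hr cells and 15.4, 15 and 14.5 in myotubes. The 3 states did not overlap, and the transcript fell by both steps (log2 fold change -2.94 ± 0.08, edgeR adjusted p = 6.13e-23, then -0.90 ± 0.087, adjusted p = 2.1e-09). Ccnd3 measured 139, 155 and 154 CPM in myoblasts, 442, 463 and 474 in 24 hr cells and 581, 594 and 591 in myotubes. It took the opposite course, again with no overlap, 4.05-fold higher in myotubes than in myoblasts (log2 fold change 2.02 ± 0.062, edgeR adjusted p = 6.9e-22). The overlapping neighbour Bysl, a ribosome biogenesis gene, was lower in myotubes (log2 fold change -0.67). Ccnd2 went from a mean of 60.7 ± 4.14 CPM to 23.4 ± 2.07 and 20.6 ± 2.17, and fell in the first step (log2 fold change -1.37 ± 0.10, edgeR adjusted p = 1.94e-12), while the second was -0.15 (edgeR adjusted p = 0.315).

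Both kinases fell. Cdk4 stood at 369, 363 and 364 CPM in myoblasts, 255, 267 and 276 in 24 hr cells and 163, 165 and 158.5 in myotubes (log2 fold change -1.13 ± 0.04, edgeR adjusted p = 2.88e-20). Cdk6 went from 110 ± 9.61 to 63.8 ± 4.87 and 33.9 ± 1.76 CPM (-1.66 ± 0.079, adjusted p = 3.07e-17), and neither gene's states overlapped. The E-type cyclins fell further. Ccne1 measured 73.1, 92.55 and 76.2 CPM in myoblasts, 14.35, 13.8 and 15.7 in 24 hr cells and 12.7, 11.4 and 9.27 in myotubes, and Ccne2 means were 77.8 ± 4.29, 10.5 ± 0.29 and 9.06 ± 1.44 CPM. Myoblasts stood above the other states for both genes (log2 fold change -2.46 ± 0.14, edgeR adjusted p = 3.32e-15 for Ccne1 at 24 hr and -2.89 ± 0.18, adjusted p = 3.69e-14 for Ccne2). From 24 hr to myotubes neither passed the test (Ccne1 -0.36 ± 0.15, Ccne2 -0.18 ± 0.20). The Ccne1 call for myotubes against 24 hr low-serum cells under DMSO was gained without all libraries numbered 2 (-0.48, adjusted p = 0.0464), and with DESeq2 size factors (adjusted p = 0.0498).

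The inhibitors went separate ways. Cdkn2d, the p19 gene, fell from 38.4, 42.7 and 33.9 CPM to 19.1, 17.7 and 16.4 at 24 hr (log2 fold change -1.11 ± 0.11, edgeR adjusted p = 3.17e-10) and stood at 25.2, 22.6 and 24.5 in myotubes (0.48 ± 0.11, adjusted p = 0.000974 against 24 hr cells). The 3 states did not overlap, with 24 hr cells lowest. Cdkn1b, the p27 gene, stood at 13.5, 13.2 and 16.9 CPM in myoblasts, 19.6, 19.6 and 17.6 at 24 hr and 13.2, 16.5 and 17.2 in myotubes, and Cdkn2c, the p18 gene, at means of 5.4 ± 0.312, 7.81 ± 0.843 and 6.29 ± 0.235 CPM. Both rose at 24 hr (0.39 ± 0.12, adjusted p = 0.00635 for Cdkn1b and 0.54 ± 0.23, adjusted p = 0.0392 for Cdkn2c by edgeR), and neither differed past the threshold between myotubes and myoblasts (0.15 and 0.26). Replicate numbers were left out 1 at a time in all states together. For 24 hr low-serum cells against control myoblasts under DMSO, the Cdkn1b call was lost without all libraries numbered 2 (0.34, adjusted p = 0.0821), and with no count filter (adjusted p = 0.0846). That for Cdkn2c was lost without all libraries numbered 1, 2 or 3 (0.46 to 0.66, adjusted p = 0.0683 to 0.154), and with no count filter (adjusted p = 0.172). The Cdkn2d call for myotubes against 24 hr low-serum cells under DMSO was lost without all libraries numbered 3 (0.37, adjusted p = 0.0914).

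Of 27 other genes of the G1 to S step, 8 rose and 13 fell between control myoblasts and myotubes among the 25 tested, against 35.7% higher and 33.7% lower of all genes tested, with a median log2 fold change of -0.32 against 0.04 over all genes tested. Those with the highest fitted log2 fold changes were the CDK inhibitor genes Cdkn1c (4.15 ± 0.41) and Cdkn1a (3.73 ± 0.054) and the E2F gene E2f2 (3.20 ± 0.14). Those that fell most were cyclin A2 (Ccna2, -3.03 ± 0.10), E2f7 (-2.83 ± 0.19) and Skp2 (-2.75 ± 0.10), part of the ligase that removes p27. Cdkn1c ran from 0.0928 to 0.65 CPM in control myoblasts, where its counts are too low to fix the size of its fold change, and from 4.32 to 5.51 CPM in myotubes. Cdkn1a, the p21 gene, averaged 118 CPM in myoblasts, 1080 at 24 hr and 1520 in myotubes. Cdk2, the kinase partner of cyclin E, averaged 57.5, 72.3 and 40.3 CPM and had a log2 fold change of -0.47 ± 0.084 in myotubes. The remaining INK4 genes, Cdkn2a and Cdkn2b, had 0 counts in all 96 libraries, which allows up to 3 counts, or 0.465 CPM in the shallowest library. All 24 genes of a list of E2F-driven S phase genes fell in myotubes (median -2.61).

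In control myoblasts the comparison with DMSO asks how each block of respiration changes the G1 machinery within 10 hr. Piericidin changed 8 of the 10 members (2 higher and 6 lower), against 61.7% of all genes tested. Antimycin changed 10 of the 10 members (2 higher and 8 lower), against 63.2% of all genes tested, and oligomycin 9 of the 10 members (2 higher and 7 lower), against 50.8% of all genes tested. With each inhibitor Ccnd2 rose while Ccnd1, Ccnd3, Ccne1, Ccne2, Cdkn2c and Cdkn2d fell. The 3 comparisons share the same DMSO libraries.

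Ccnd2 measured 65.45, 59.1 and 57.7 CPM under DMSO, 179, 181 and 179 with piericidin, 81.25, 94.9 and 89.4 with antimycin and 202, 199 and 202 with oligomycin. No 2 of these conditions overlapped, and the level rose 3.035-fold with piericidin (log2 fold change 1.60 ± 0.079, edgeR adjusted p = 4.8e-17), 1.5-fold with antimycin (0.59 ± 0.079, adjusted p = 1.76e-07) and 3.34-fold with oligomycin (1.74 ± 0.079, adjusted p = 1.1e-17). Ccnd1 went the other way, from 216.5, 212 and 232.5 CPM to 138, 132 and 128 with piericidin, 97.7, 95.4 and 82.35 with antimycin and 185, 167 and 169.9 with oligomycin. Antimycin libraries were lowest and overlapped no other condition (log2 fold change -1.22 ± 0.055), and the falls with piericidin and oligomycin were -0.70 ± 0.054 and -0.33 ± 0.054, with edgeR adjusted p = 4.34e-18, 1.98e-12 and 6.64e-06. For Oraov1, which shares exon bases with Ccnd1, the piericidin value was -0.10, and calls were made with antimycin (-0.97) and oligomycin (-0.39).

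Ccnd3 fell from 139, 155 and 154 CPM under DMSO to 57, 48.8 and 59.9 with piericidin, 64.6, 62.4 and 61.9 with antimycin and 67.2, 70.9 and 74.7 with oligomycin. Every treated library was below every DMSO library (log2 fold change -1.40 ± 0.073, edgeR adjusted p = 1.5e-16 for piericidin). The level left was 0.379, 0.435 and 0.479 of that under DMSO. Bysl on the opposite strand rose in the same libraries (0.84, 0.78 and 0.33 on the log2 scale), against the direction of Ccnd3.

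The kinases moved little. Cdk4 measured 369, 363 and 364 CPM under DMSO, 434.5, 443 and 449 with piericidin, 430.1, 473 and 414 with antimycin and 375, 382 and 362 with oligomycin. It rose with piericidin (log2 fold change 0.31 ± 0.038, edgeR adjusted p = 3.23e-08) and antimycin (0.31 ± 0.038, adjusted p = 3.33e-08), in which no library overlapped DMSO, and the oligomycin value was 0.04 ± 0.038. Without antimycin library 2 the antimycin value was 0.20 and still called. The overlapping Tspan31 fell by 0.79 on the log2 scale with piericidin and with antimycin. Cdk6 fell with antimycin (-0.34 ± 0.063, adjusted p = 2.68e-05), had a log2 fold change of 0.00 ± 0.063 with piericidin, and was 0.15 ± 0.062 with oligomycin (edgeR adjusted p = 0.0471). For oligomycin in control myoblasts, the Cdk6 call was lost without DMSO control library 1 or 3 or oligomycin control library 1 or 2 (0.08 to 0.15, adjusted p = 0.0909 to 0.381), and with no count filter or only the groups compared (adjusted p = 0.0791 to 0.41).

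The E-type cyclins had the largest falls among the members with piericidin and antimycin, and Ccne1 the largest with oligomycin. Ccne1 measured 73.1, 92.55 and 76.2 CPM under DMSO, 11.5, 12.8 and 10.9 with piericidin, 12, 10.2 and 11.8 with antimycin and 26.5, 29.3 and 29.5 with oligomycin. Oligomycin libraries lay between DMSO and the other inhibitors without overlap. The log2 fold changes were -2.75 ± 0.10, -2.78 ± 0.10 and -1.49 ± 0.091 (edgeR adjusted p = 2.27e-20, 1.52e-20 and 1.19e-14). Ccne2 went from 81.8, 73.3 and 78.4 CPM to 19.3, 23.5 and 18.5 with piericidin, 13.5, 9.3 and 9.8 with antimycin and 33.1, 40.85 and 32.7 with oligomycin. No 2 conditions of Ccne2 overlapped, and antimycin left 0.145 of the DMSO level (log2 fold change -2.78 ± 0.12, edgeR adjusted p = 8.83e-19). Ints8, its overlapping neighbour, fell less with piericidin (-0.52) and antimycin (-0.55).

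Among the inhibitor genes, Cdkn2d had the largest falls. It measured 38.4, 42.7 and 33.9 CPM under DMSO, 18.7, 19.4 and 19.95 with piericidin, 10.6, 11.8 and 12.8 with antimycin and 11.7, 15.7 and 15.2 with oligomycin. All treated libraries were below all DMSO libraries (log2 fold change -1.67 ± 0.11, edgeR adjusted p = 5.23e-14 for antimycin). Cdkn1b measured 13.5, 13.2 and 16.9 CPM under DMSO, 14.2, 9.7 and 10.2 with piericidin, 8.29, 8.05 and 8.535 with antimycin and 7.65, 7.89 and 7.26 with oligomycin. It fell with antimycin (-0.76 ± 0.16, adjusted p = 0.000173) and oligomycin (-0.92 ± 0.16, adjusted p = 2.13e-05) but not past the threshold with piericidin (-0.32 ± 0.16, adjusted p = 0.0841). Cdkn2c averaged 5.4 ± 0.312 CPM under DMSO and 3.29 ± 0.785, 2.47 ± 1.06 and 2.55 ± 1.13 with the inhibitors (-0.68 ± 0.27, -1.09 ± 0.28 and -1.07 ± 0.28), at levels low enough that SDs reached a large share of the means. The Cdkn2c call for piericidin in control myoblasts was lost without DMSO control library 1 or 3 or piericidin control library 1 or 3 (-0.69 to -0.56, adjusted p = 0.0529 to 0.119), and with no count filter or a well term (adjusted p = 0.051 to 0.118). Cdkn1b gained a call without piericidin control library 1 (-0.51, adjusted p = 0.0119).

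Of the other G1 to S genes, 4 rose and 12 fell with piericidin, 4 and 13 with antimycin and 4 and 7 with oligomycin of 24 tested. Of all genes tested, 30.9% were higher and 30.8% lower with piericidin, 32.1% and 31.1% with antimycin and 24.5% and 26.3% with oligomycin. The list's median log2 fold changes were -0.36, -0.35 and -0.05, against -0.0037, -0.0048 and -0.01 over all genes tested and -0.69, -1.15 and -0.99 over the members. Myc, a growth factor-responsive transcription factor, rose most with each (1.89 ± 0.059, 2.50 ± 0.06 and 1.61 ± 0.059), and the CDK-activating subunit gene Mnat1 also rose (0.93 ± 0.096, 0.80 ± 0.096 and 0.58 ± 0.096). E2f8 (-2.29 ± 0.21, -2.51 ± 0.21 and -2.15 ± 0.20) and E2f2 (-1.57 ± 0.24, -2.63 ± 0.27 and -1.32 ± 0.23) fell most. Cdk2 fell with all 3 (-0.92 ± 0.10, -1.40 ± 0.10 and -0.88 ± 0.099). Cdkn1a rose with piericidin (0.99 ± 0.052), antimycin (0.74 ± 0.052) and oligomycin (0.19 ± 0.052, edgeR adjusted p = 0.00246), while no inhibitor among the 10 members did. S phase genes fell in 21, 22 and 23 of 24, with medians of -0.88, -1.00 and -0.82.

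**Figure D2:**
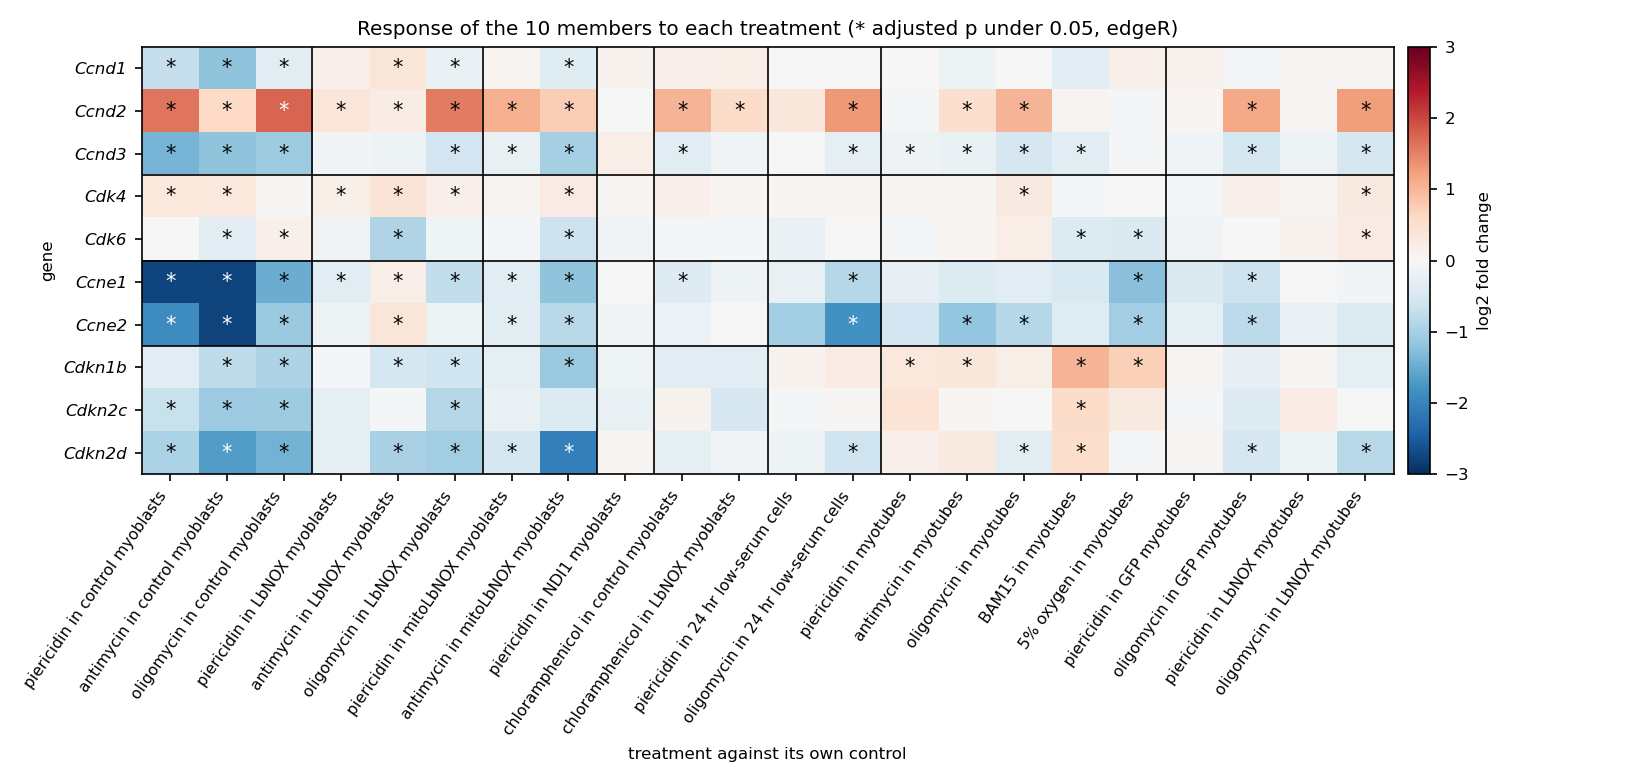
Log2 fold change of each of the 10 members against its own control (color scale, from blue for lower to red for higher), with genes in order of role on the y axis, treatments on the x axis and an asterisk where the edgeR test was passed. Over these responses and that to oligomycin within 5% oxygen, 23 in all, Ccnd2 was called higher in 15 and lower in 0, Ccnd3 higher in 1 and lower in 14, and Ccne1 higher in 1 and lower in 11.

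The inhibitors were set against each other in control myoblasts, where doses differ between compounds, so these are differences between treatments as given. Antimycin against piericidin changed 7 of the 10 members (1 higher and 6 lower), against 37.2% of all genes tested. Antimycin against oligomycin changed 6 of the 10 members (1 higher and 5 lower), against 50.0% of all genes tested, and piericidin against oligomycin 7 of the 10 members (3 higher and 4 lower), against 39.2% of all genes tested. Ccnd2 was lower with antimycin than with piericidin (log2 fold change -1.01 ± 0.078, edgeR adjusted p = 9.34e-12) or oligomycin (-1.15 ± 0.078, adjusted p = 2.12e-13). Ccne2 was also lower with antimycin than with piericidin (-0.89 ± 0.12, adjusted p = 1.07e-06), while for Ccne1 that difference was -0.03 ± 0.11. Against oligomycin, Ccne1 was lower with both piericidin (-1.26 ± 0.10) and antimycin (-1.29 ± 0.10). Cdkn2d was higher with piericidin than with oligomycin (0.47 ± 0.11, adjusted p = 0.00117), and Cdkn1b likewise (0.60 ± 0.17, adjusted p = 0.00463). For antimycin against piericidin in control myoblasts, the Ccnd3 call was lost without antimycin control library 1, 2 or 3 or piericidin control library 2 (0.12 to 0.21, adjusted p = 0.0558 to 0.262), and with DESeq2's Wald test, no count filter, only the groups compared or a well term (adjusted p = 0.0519 to 0.126). That for Cdkn1b was lost without antimycin control library 1, 2 or 3 or piericidin control library 1 (-0.47 to -0.25, adjusted p = 0.0609 to 0.287), and with DESeq2's Wald test, no count filter, only the groups compared or a well term (adjusted p = 0.051 to 0.164). The Ccnd3 call for antimycin against oligomycin in control myoblasts was gained with a well term (adjusted p = 0.0444). Cdkn2d gained a call without oligomycin control library 1 (-0.38, adjusted p = 0.00991). For piericidin against oligomycin in control myoblasts, the Cdkn1b call was lost without piericidin control library 1 (0.41, adjusted p = 0.0696). A Ccnd2 call was gained with only the groups compared (adjusted p = 0.014). Cdk6 gained a call without oligomycin control library 3 or piericidin control library 2 (-0.19 to -0.18, adjusted p = 0.0312 to 0.041), and with DESeq2 size factors, DESeq2's Wald test or only the groups compared (adjusted p = 0.0377 to 0.0482).

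In the transgene lines the question is which responses remain when NADH is oxidized by another route. Under DMSO few members differed from the control line. LbNOX myoblasts differed in 1 of the 10 members (1 lower), against 2.68% of all genes tested, and mitoLbNOX myoblasts in 1 of the 10 members (1 lower), against 1.77% of all genes tested. NDI1 myoblasts differed in 0 of the 10 members, against 4.61% of all genes tested, with 1 member at an unadjusted p under 0.05 and 0 called by DESeq2. The one gene in question was Ccnd2, lower in both LbNOX (46.5, 49 and 45.9 CPM) and mitoLbNOX myoblasts (50.7, 45.5 and 43.9 CPM) than in the control line (65.45, 59.1 and 57.7 CPM), by log2 differences of -0.37 ± 0.08 and -0.38 ± 0.08. The Ccnd2 call for LbNOX myoblasts against control myoblasts under DMSO was lost without DMSO control library 1 (-0.32, adjusted p = 0.0632). For mitoLbNOX myoblasts against control myoblasts under DMSO, the Ccnd2 call was lost without DMSO control library 1 or DMSO mitoLbNOX library 3 (-0.35 to -0.33, adjusted p = 0.0506 to 0.066), and with only the groups compared (adjusted p = 0.0918).

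Piericidin changed 3 of the 10 members (2 higher and 1 lower), against 8.87% of all genes tested, in LbNOX myoblasts. In mitoLbNOX myoblasts it changed 5 of the 10 members (1 higher and 4 lower), against 11.2% of all genes tested. In NDI1 myoblasts it changed 0 of the 10 members, against 0.00835% of all genes tested, with 1 member at an unadjusted p under 0.05 and 0 called by DESeq2. Ccne1 with piericidin measured 61, 65.6 and 69.6 CPM in LbNOX, 62.7, 63.2 and 58.7 in mitoLbNOX and 72.55 and 70.4 in NDI1 myoblasts. Under DMSO it measured 85.3, 89.2 and 78.8 in LbNOX, 81.3, 77 and 74.9 in mitoLbNOX and 73.2 and 74.6 in NDI1 myoblasts. Its piericidin response was -0.34 ± 0.086, -0.32 ± 0.086 and -0.02 ± 0.11, compared with -2.75 ± 0.10 in the control line. Ccnd2 with piericidin measured 58.3, 66.4 and 55.8 CPM in LbNOX, 99.8, 97.9 and 90.5 in mitoLbNOX and 53.15 and 48.7 in NDI1 myoblasts. It rose in LbNOX (log2 fold change 0.37 ± 0.081, edgeR adjusted p = 0.00216) and more in mitoLbNOX (1.06 ± 0.08, adjusted p = 1.54e-11), without overlap with the DMSO libraries of the line, and was 0.01 ± 0.098 in NDI1. Cdkn2d fell with piericidin in mitoLbNOX (-0.52 ± 0.10, adjusted p = 0.000483), and its LbNOX value was -0.29 ± 0.10. The Cdk4 call for piericidin in LbNOX myoblasts was lost with no count filter (adjusted p = 0.0961). That for Ccne1 was lost without DMSO LbNOX library 2 or piericidin LbNOX library 1 (-0.30, adjusted p = 0.0602 to 0.0652). Ccnd1 gained a call with a well term or a replicate block (adjusted p = 0.0415 to 0.0487). A Cdkn2d call was gained without piericidin LbNOX library 2 (-0.40, adjusted p = 0.0233). For piericidin in mitoLbNOX myoblasts, the Ccnd3 call was lost without DMSO mitoLbNOX library 2 or 3 or piericidin mitoLbNOX library 1 or 2 (-0.24 to -0.20, adjusted p = 0.0502 to 0.11), and with no count filter (adjusted p = 0.0504). Ccne1 lost its call without DMSO mitoLbNOX library 1 or piericidin mitoLbNOX library 3 (-0.31 to -0.29, adjusted p = 0.0504 to 0.0685). That for Ccne2 was lost without DMSO mitoLbNOX library 1 or 2 or piericidin mitoLbNOX library 1 or 3 (-0.31 to -0.29, adjusted p = 0.104 to 0.138), and with a well term (adjusted p = 0.15).

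Interaction terms test whether a line's response differs from that of the control line. For piericidin, the response differed in LbNOX for 7 of the 10 members (5 higher and 2 lower), against 44.3% of all genes tested. It differed in mitoLbNOX for 7 of the 10 members (5 higher and 2 lower), against 42.8% of all genes tested, and in NDI1 for 7 of the 10 members (5 higher and 2 lower), against 42.7% of all genes tested. In all 3 lines Ccnd1, Ccnd3, Ccne1, Ccne2 and Cdkn2d had a higher log2 fold change than in the control line, and Ccnd2 and Cdk4 a lower one. For Ccne1 the differences were 2.41 ± 0.13, 2.43 ± 0.13 and 2.73 ± 0.15 (edgeR adjusted p = 2.19e-15, 2.29e-15 and 1.17e-15), and for Ccnd2 -1.23 ± 0.11, -0.54 ± 0.11 and -1.60 ± 0.13. A direct test of mitoLbNOX against LbNOX, added after the data were seen, found a difference in the piericidin response of 1 of the 10 members (1 higher), against 0.492% of all genes tested, namely Ccnd2 (0.69 ± 0.11, adjusted p = 0.00144). The Cdk4 call for the piericidin response of LbNOX myoblasts against control myoblasts was lost without DMSO LbNOX library 1, 2 or 3, DMSO control library 2 or 3, piericidin LbNOX library 2 or 3 or piericidin control library 2 or 3 (-0.14 to -0.11, adjusted p = 0.0526 to 0.168), and with no count filter (adjusted p = 0.197). For the piericidin response of mitoLbNOX myoblasts against control myoblasts, the Cdkn2d call was lost without DMSO control library 2 (0.34, adjusted p = 0.0704), and with no count filter (adjusted p = 0.0979).

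**Figure D3:**
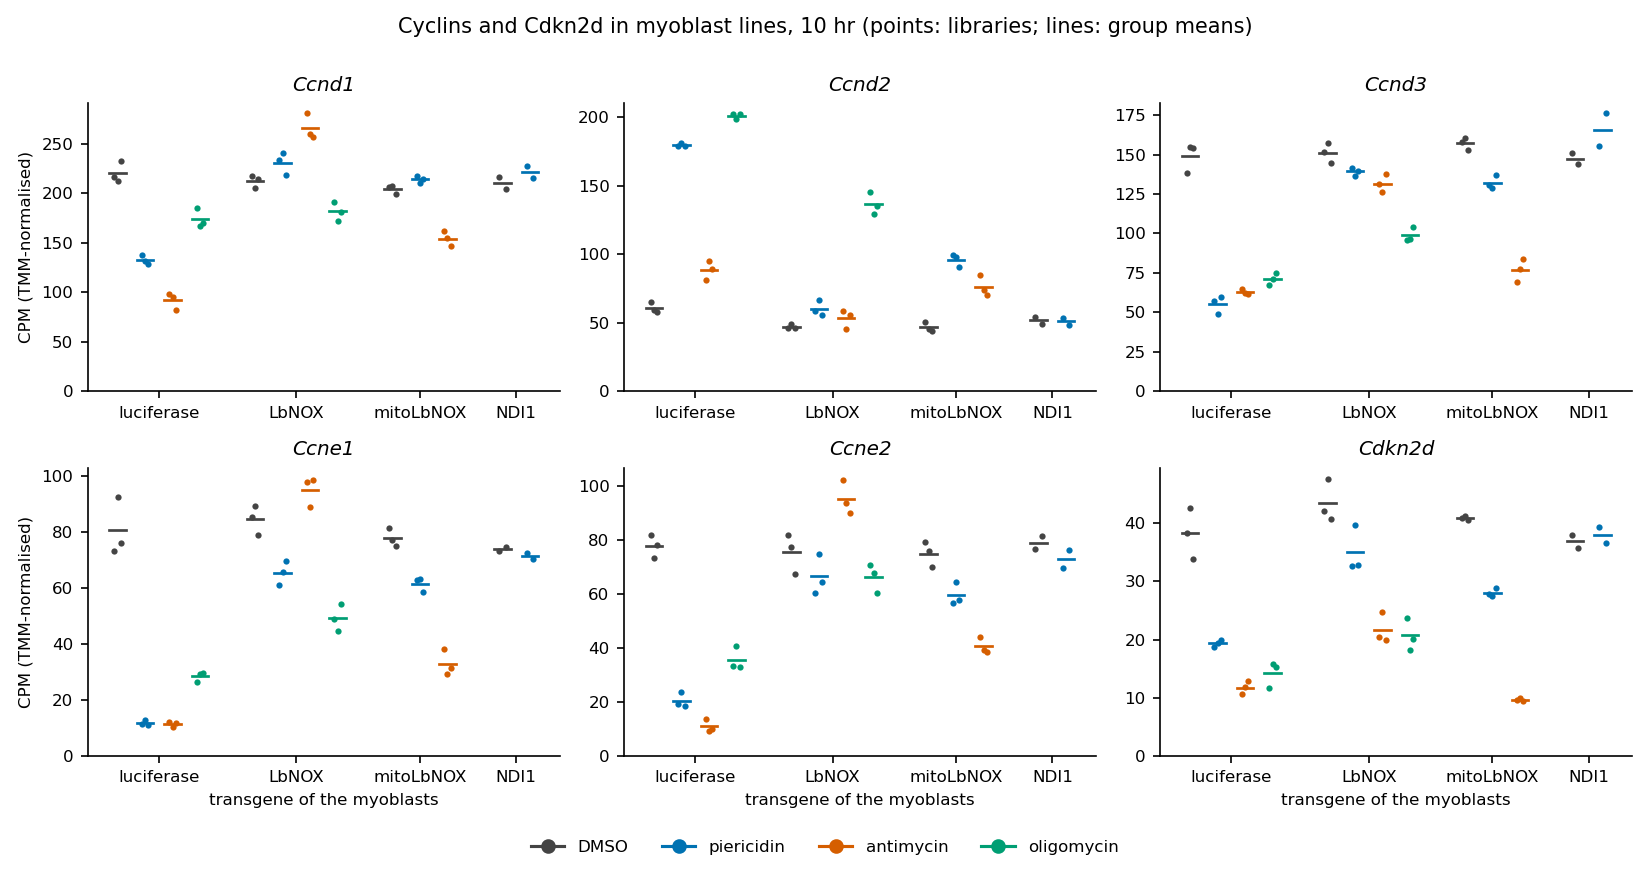
Levels in CPM (y axis) of the 5 cyclin genes and Cdkn2d in luciferase, LbNOX, mitoLbNOX and NDI1 myoblasts (x axis), with colors for DMSO, piericidin, antimycin and oligomycin, points for libraries and short lines for means. With antimycin, Ccne1 averaged 11.3 CPM in the control line, 95.1 in LbNOX and 32.9 in mitoLbNOX myoblasts.

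Antimycin changed 8 of the 10 members (5 higher and 3 lower), against 46.1% of all genes tested, in LbNOX myoblasts, and 9 of the 10 members (2 higher and 7 lower), against 47.7% of all genes tested, in mitoLbNOX myoblasts. The directions parted between these lines. Ccnd1 measured 217, 205 and 214 CPM under DMSO and 281, 260.2 and 257 with antimycin in LbNOX, where it rose (log2 fold change 0.36 ± 0.053, edgeR adjusted p = 1.58e-06). In mitoLbNOX it measured 206, 207 and 199 under DMSO and 161, 154 and 147 with antimycin, where it fell (-0.36 ± 0.054, adjusted p = 1.64e-06). Ccne2 went from 81.8, 77.6 and 67.6 to 102, 93.7 and 90.2 CPM in LbNOX (0.37 ± 0.10, adjusted p = 0.0031) and from 79.2, 75.9 and 69.9 to 44.2, 39.1 and 38.6 in mitoLbNOX (-0.84 ± 0.10, adjusted p = 6.65e-08). Neither gene overlapped its DMSO libraries in either line. Ccne1 responses were 0.21 ± 0.086 in LbNOX and -1.20 ± 0.09 in mitoLbNOX. The Ccne1 call for antimycin in LbNOX myoblasts was lost without antimycin LbNOX library 1 or 3 or DMSO LbNOX library 1 or 3 (0.15 to 0.22, adjusted p = 0.0795 to 0.224), and with DESeq2 size factors, DESeq2's Wald test, no count filter or a replicate block (adjusted p = 0.0513 to 0.277).

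Cdkn2d kept a fall in both lines. It went from 42.2, 47.7 and 40.7 to 20.4, 24.7 and 19.95 CPM in LbNOX (-0.97 ± 0.10, adjusted p = 5.05e-09) and from 40.9, 41.2 and 40.6 to 9.495, 9.96 and 9.45 in mitoLbNOX (-2.04 ± 0.11, adjusted p = 1.51e-15), by edgeR. Cdkn1b fell too, with log2 fold changes of -0.53 ± 0.16 in LbNOX and -1.11 ± 0.17 in mitoLbNOX, and so did Cdk6 (-0.91 ± 0.064 and -0.61 ± 0.064). Cdk6 thus fell more in LbNOX than in the control line (difference -0.57 ± 0.09, adjusted p = 3.93e-06 by edgeR). Among other G1 to S genes in LbNOX with antimycin, Cdkn1a rose (1.89 ± 0.052) and Myc fell (-1.11 ± 0.062), where Myc rose in the control line. S phase genes with antimycin rose in 6 and fell in 4 of 24 in LbNOX, and rose in 1 and fell in 22 in mitoLbNOX. Of all genes tested, 23.3% were higher and 22.9% lower in LbNOX, and 24.8% and 22.9% in mitoLbNOX. The 11 markers of other cell types without Tubb3 summed to 3.44 to 3.81 CPM under DMSO and 4.12 to 6.41 with antimycin in LbNOX, and to 1.85 to 4.25 and 8.38 to 9.17 in mitoLbNOX. With Tubb3 the sums went from 36.5 to 40.1 up to 75.6 to 87.2 in LbNOX and from 29.4 to 33.3 up to 70.8 to 73.4 in mitoLbNOX. The macrophage marker Cd68 rose (log2 fold change 2.57 in LbNOX and 3.35 in mitoLbNOX). With antimycin the leukocyte marker Adgre1 was at 0 in LbNOX, and Adipoq and Lep were at 0 in both lines. The part of these transcripts was not tested. For antimycin in LbNOX myoblasts, the Ccnd2 call was lost without antimycin LbNOX library 1 or 3 or DMSO LbNOX library 1 or 3 (0.15 to 0.21, adjusted p = 0.0751 to 0.197), and with no count filter or only the groups compared (adjusted p = 0.111 to 0.157). Cdkn1b lost its call without DMSO LbNOX library 1 (-0.36, adjusted p = 0.0902). A Ccnd3 call was gained without antimycin LbNOX library 3 or DMSO LbNOX library 3 (-0.22 to -0.21, adjusted p = 0.0186 to 0.028), and with DESeq2 size factors, DESeq2's Wald test, only the groups compared, a well term or a replicate block (adjusted p = 0.0148 to 0.0376).

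Against the control line, the antimycin response differed in LbNOX for 8 of the 10 members (6 higher and 2 lower), against 51.5% of all genes tested, and in mitoLbNOX for 4 of the 10 members (3 higher and 1 lower), against 31.7% of all genes tested. The differences for Ccne2 were 3.16 ± 0.16 in LbNOX and 1.94 ± 0.16 in mitoLbNOX, and for Ccnd1 1.58 ± 0.077 and 0.86 ± 0.077. The direct test of mitoLbNOX against LbNOX, also added afterwards, found a difference for 7 of the 10 members (2 higher and 5 lower), against 29.2% of all genes tested. Ccne1 (difference -1.41 ± 0.12, edgeR adjusted p = 2.82e-10), Ccne2 (-1.21 ± 0.14, adjusted p = 1.24e-07), Ccnd1 (-0.73), Ccnd3 (-0.82) and Cdkn2d (-1.07) responded more negatively in mitoLbNOX. The Ccnd2 call for the antimycin response of LbNOX myoblasts against control myoblasts was lost without antimycin control library 2 (-0.28, adjusted p = 0.0566). Cdkn2c lost its call without antimycin LbNOX library 2, antimycin control library 1 or 2 or DMSO LbNOX library 1 (0.85 to 0.97, adjusted p = 0.051 to 0.0835), and with no count filter (adjusted p = 0.1). A Cdk4 call was gained without antimycin control library 2 (0.17, adjusted p = 0.00653). For the antimycin response of mitoLbNOX myoblasts against control myoblasts, the Cdk6 call was lost without antimycin control library 2, antimycin mitoLbNOX library 2 or 3, DMSO control library 3 or DMSO mitoLbNOX library 1 (-0.25 to -0.19, adjusted p = 0.0517 to 0.121), and with no count filter (adjusted p = 0.091). Ccnd3 gained a call without antimycin mitoLbNOX library 1 or DMSO control library 1 (0.27 to 0.29, adjusted p = 0.0284 to 0.0459), and with a well term (adjusted p = 0.0286). A Cdkn2c call was gained without antimycin control library 3 (1.08, adjusted p = 0.0414). Cdkn2d gained a call without antimycin control library 1 or DMSO control library 2 (-0.46 to -0.44, adjusted p = 0.0311 to 0.0481). The Cdk6 call for the antimycin response of mitoLbNOX myoblasts against LbNOX myoblasts was lost without antimycin LbNOX library 3 or DMSO LbNOX library 3 (0.23 to 0.26, adjusted p = 0.0517 to 0.0731), and with no count filter (adjusted p = 0.0646). A Cdk4 call was gained without antimycin LbNOX library 3 or DMSO mitoLbNOX library 3 (-0.17 to -0.15, adjusted p = 0.0307 to 0.0447), and with a replicate block (adjusted p = 0.0377). Cdkn1b gained a call without DMSO LbNOX library 1 (-0.75, adjusted p = 0.0167), and with a replicate block (adjusted p = 0.0478).

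Oligomycin in LbNOX myoblasts changed 8 of the 10 members (2 higher and 6 lower), against 35.2% of all genes tested. Ccnd2 rose from 46.5, 49 and 45.9 to 146, 129 and 135 CPM (log2 fold change 1.56 ± 0.08, edgeR adjusted p = 4.66e-16). Ccne1 fell from 85.3, 89.2 and 78.8 to 48.9, 44.7 and 54 CPM (-0.75 ± 0.088, adjusted p = 4.51e-08), and Cdkn2d from 42.2, 47.7 and 40.7 to 23.7, 18.2 and 20.2 (-1.04 ± 0.10, adjusted p = 2.13e-09). None of the 3 overlapped DMSO. The 12 markers of other cell types summed to 36.5 to 40.1 CPM under DMSO and 53.4 to 61.1 with oligomycin, and without Tubb3 to 3.44 to 3.81 and 3.33 to 4.98, with Ptprc, Adipoq, Lep, Rbfox3 and Snap25 at 0 with oligomycin. Of these Tubb3 (log2 fold change 0.70) and Cd68 (1.36) rose, and their part in the result was not tested. The response differed from that of the control line for 4 of the 10 members (3 higher and 1 lower), against 7.98% of all genes tested, and these were Ccnd3 (0.48 ± 0.10), Ccne1 (0.74 ± 0.13), Ccne2 (0.95 ± 0.15) and Cdk6 (-0.29 ± 0.088). For Ccnd2 the difference was -0.18 ± 0.11 (edgeR adjusted p = 0.394). For oligomycin in LbNOX myoblasts, the Cdk4 call was lost with no count filter (adjusted p = 0.0983). That for Cdkn1b was lost without DMSO LbNOX library 1 (-0.43, adjusted p = 0.0561). Cdkn2c lost its call without DMSO LbNOX library 2 or oligomycin LbNOX library 1 (-0.73 to -0.69, adjusted p = 0.0686 to 0.084). The Cdk6 call for the oligomycin response of LbNOX myoblasts against control myoblasts was lost without DMSO LbNOX library 2 or 3, DMSO control library 1 or 3, oligomycin LbNOX library 1, 2 or 3 or oligomycin control library 1 or 2 (-0.29 to -0.23, adjusted p = 0.0668 to 0.15), and with no count filter or only the groups compared (adjusted p = 0.0723 to 0.251).

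**Figure D4:**
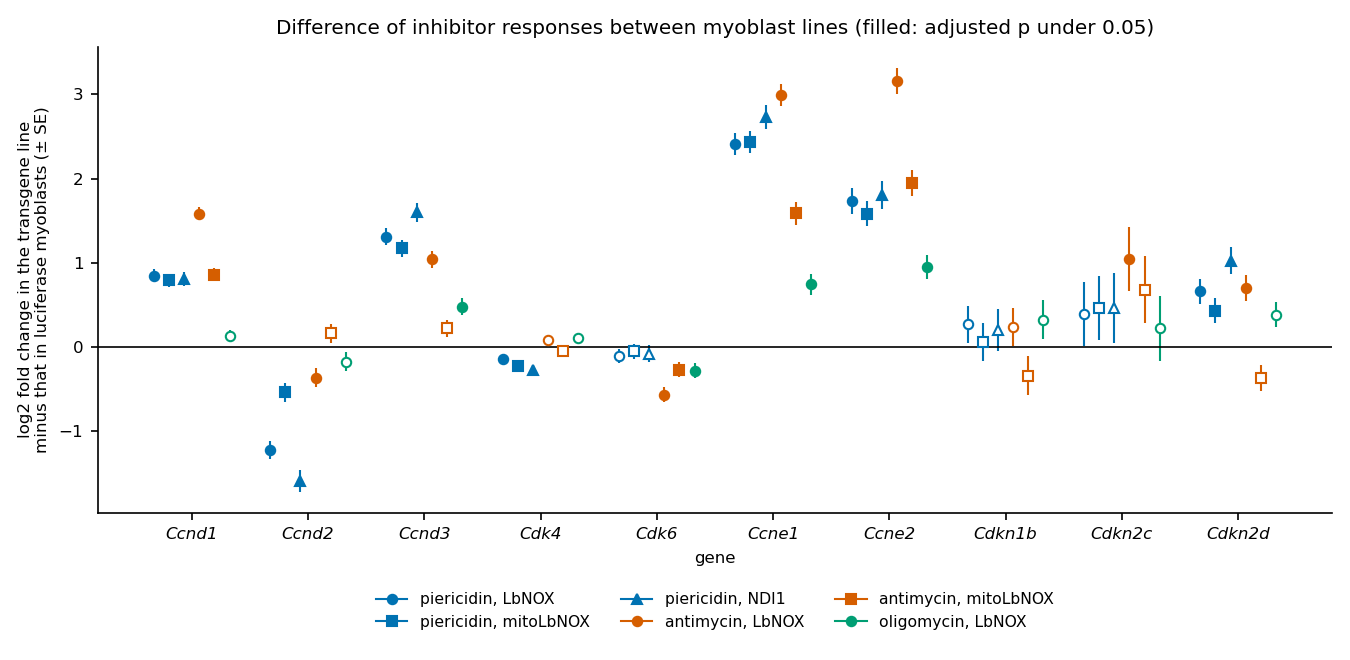
Difference between the log2 fold change of a transgene line and that of the luciferase control line (y axis, with SE) for each of the 10 members (x axis); colors mark the inhibitor, shapes the line, and filled symbols passed the edgeR test. Ccne1 with antimycin lies at 2.99 for LbNOX and 1.59 for mitoLbNOX, and Ccnd2 with piericidin at -1.23, -0.54 and -1.60 for LbNOX, mitoLbNOX and NDI1.

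Chloramphenicol for 48 hr changed 3 of the 10 members (1 higher and 2 lower), against 8.45% of all genes tested, in control myoblasts, and 1 of the 10 members (1 higher), against 0.931% of all genes tested, in LbNOX myoblasts. The 12 markers of other cell types summed to 29.1 to 30.6 CPM under DMSO and 40 to 42.1 with chloramphenicol in control myoblasts. In LbNOX myoblasts they summed to 34.2 to 35 and 33.5 to 34.9. Without Tubb3 the sums were 3.09 to 3.71 and 3.11 to 4.46 in control myoblasts, and 2.66 to 3.19 and 3.62 to 4.13 in LbNOX. The part of these transcripts was not tested. Ccnd2 measured 56 and 58.3 CPM under DMSO and 119.8 and 105.5 with chloramphenicol in the control line (log2 fold change 1.03 ± 0.08, edgeR adjusted p = 9.08e-05), and went from 50.35 and 50.7 to 72 and 73.55 in LbNOX (0.56 ± 0.081, adjusted p = 0.0165). It rose without overlap in each line. Ccnd3 (-0.35 ± 0.061) and Ccne1 (-0.38 ± 0.073) fell in the control line, and their LbNOX values were -0.11 ± 0.061 and -0.15 ± 0.074. The difference between lines passed the edgeR test for 0 of the 10 members, against 0.530% of all genes tested, with 2 members at an unadjusted p under 0.05 and 0 called by DESeq2. For chloramphenicol in control myoblasts, the Ccnd3 call was lost without chloramphenicol control library 1 or DMSO control library 2 (-0.35 to -0.30, adjusted p = 0.0558 to 0.0642). That for Ccne1 was lost without chloramphenicol control library 1 or 2 or DMSO control library 1 or 2 (-0.40 to -0.35, adjusted p = 0.0634 to 0.0856). The Ccnd2 call for chloramphenicol in LbNOX myoblasts was lost without chloramphenicol LbNOX library 1 or 2 or DMSO LbNOX library 1 or 2 (0.53 to 0.57, adjusted p = 0.0514 to 0.169).

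In 24 hr low-serum cells, piericidin changed 0 of the 10 members, against 2.75% of all genes tested, with 3 members at an unadjusted p under 0.05 and 0 called by DESeq2. Oligomycin changed 5 of the 10 members (1 higher and 4 lower), against 20.7% of all genes tested. Ccnd2 measured 21, 24.35 and 24.8 CPM under DMSO and 61.4, 55.2 and 54.4 with oligomycin (log2 fold change 1.31 ± 0.09, edgeR adjusted p = 1.21e-06). Ccne2 fell from 10.3, 10.3 and 10.8 to 1.63, 3.25 and 3.865 CPM (-1.81 ± 0.27, adjusted p = 0.000542) and stood at 3.89, 6.25 and 5.26 with piericidin (-1.03 ± 0.25, adjusted p = 0.057). Neither gene's oligomycin libraries overlapped DMSO. Ccnd3 (-0.29 ± 0.061), Ccne1 (-0.85 ± 0.15) and Cdkn2d (-0.59 ± 0.11) also fell with oligomycin. For piericidin in 24 hr low-serum cells, the Ccne2 call was gained with no count filter, only the groups compared or a replicate block (adjusted p = 0.00108 to 0.0473).

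Myotubes were treated with the same inhibitors. Under DMSO their cultures still held proliferation transcripts, with Mki67 at 12.9 CPM, Top2a at 43.4 and Ccna2 at 38.4. Control myoblasts had 110, 396 and 323 CPM. Whether some cells in the myotube cultures still cycled was not tested. Piericidin changed 2 of the 10 members (1 higher and 1 lower), against 8.99% of all genes tested. Antimycin changed 4 of the 10 members (2 higher and 2 lower), against 12.9% of all genes tested, and oligomycin 5 of the 10 members (2 higher and 3 lower), against 33.3% of all genes tested. BAM15 changed 5 of the 10 members (3 higher and 2 lower), against 25.4% of all genes tested, and 5% oxygen 4 of the 10 members (1 higher and 3 lower), against 22.1% of all genes tested. All 5 comparisons share the DMSO libraries. The 11 markers of other cell types without Tubb3 summed to 2.85 to 3.19 CPM under DMSO, 4.48 to 5.35 with piericidin, 4.87 to 6.68 with antimycin, 5.14 to 6.33 with oligomycin, 5.05 to 5.87 with BAM15 and 3.59 to 5.07 in 5% oxygen, with Cdh5, Kdr, Lep and Rbfox3 at 0 under DMSO. With Tubb3 they summed to 40.4 to 42.5 CPM under DMSO, 21.7 to 28.8 with piericidin, 27.4 to 35.7 with antimycin, 29.4 to 36.6 with oligomycin, 33.4 to 40.4 with BAM15 and 27.5 to 33.4 in 5% oxygen. Cd68 rose with oligomycin (log2 fold change 1.67) and in 5% oxygen (1.05), while the leukocyte marker Adgre1 was at 0 with oligomycin. The part of these transcripts was not tested.

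Ccnd2 in myotubes measured 19.15, 19.5 and 23.1 CPM under DMSO, 13.5, 23.1 and 21.5 with piericidin, 28.8, 28.6 and 28.2 with antimycin and 41.25, 41.7 and 41.8 with oligomycin. Oligomycin libraries stood above all the others and the gene rose (log2 fold change 1.02 ± 0.13, edgeR adjusted p = 7.72e-07), as it did with antimycin (0.48 ± 0.13, adjusted p = 0.0136). With BAM15 and 5% oxygen it measured 19.25, 22.4 and 23.7 and 19.6, 17 and 23.6 CPM (0.09 ± 0.13 and -0.03 ± 0.13, neither called). Ccnd3, the most abundant member per kilobase here, measured 581, 594 and 591 CPM under DMSO and 407.5, 415 and 413 with oligomycin. It fell without overlap with oligomycin (-0.51 ± 0.034, adjusted p = 1.31e-11) and with BAM15 (-0.32 ± 0.034, adjusted p = 1.28e-07), less with antimycin (-0.20 ± 0.034) and piericidin (-0.15 ± 0.034), and was -0.04 ± 0.034 in 5% oxygen. Cdk4 rose with oligomycin (0.28 ± 0.04), and Cdk6 fell with BAM15 (-0.41 ± 0.11) and 5% oxygen (-0.43 ± 0.11). The Ccnd2 call for antimycin in myotubes was lost without DMSO library 1 or 2 (0.43 to 0.44, adjusted p = 0.0598 to 0.0655).

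Of the E-type cyclins in myotubes, Ccne1 measured 12.7, 11.4 and 9.27 CPM under DMSO and 5.16, 5.39 and 3.42 in 5% oxygen, where it fell (log2 fold change -1.26 ± 0.22, edgeR adjusted p = 8.79e-05). Ccne2 fell with antimycin (-1.16 ± 0.27, adjusted p = 0.00402), oligomycin (-0.85 ± 0.26, adjusted p = 0.0145) and 5% oxygen (-1.05 ± 0.27, adjusted p = 0.00502). Its libraries went from 10.7, 8.05 and 8.42 CPM to 3.79, 4.03 and 4.27 with antimycin, 7.08, 3.57 and 4.39 with oligomycin and 2.845, 5.96 and 4.21 in 5% oxygen. Cdkn1b measured 13.2, 16.5 and 17.2 CPM under DMSO, 31.1, 33.5 and 29.7 with BAM15 and 23.7, 23.45 and 29.6 in 5% oxygen. It rose 2.02-fold with BAM15 (log2 fold change 1.01 ± 0.098, edgeR adjusted p = 2.55e-08), and in 5% oxygen (0.71 ± 0.099, adjusted p = 5.7e-06), without overlap, and by less with piericidin (0.33 ± 0.10) and antimycin (0.34 ± 0.10). Cdkn2c (0.55 ± 0.16) and Cdkn2d (0.53 ± 0.10) rose with BAM15 as well, so that all 3 member inhibitors rose together there, while oligomycin lowered Cdkn2d (-0.34 ± 0.11). Among other G1 to S genes, oligomycin raised Myc (1.74 ± 0.089) and lowered E2f2 (-2.32 ± 0.095) most, and 5% oxygen lowered Ccna2 (-3.19 ± 0.17) and all 23 S phase genes tested, where 9.78% of all genes tested were lower. For piericidin in myotubes, the Cdkn1b call was lost without DMSO library 1 or 2 or piericidin library 1, 2 or 3 (0.22 to 0.37, adjusted p = 0.0582 to 0.245), and with DESeq2 size factors, DESeq2's Wald test, no count filter, only the groups compared, a well term or a replicate block (adjusted p = 0.0501 to 0.408). The Cdkn1b call for antimycin in myotubes was lost without antimycin library 1 or DMSO library 1 (0.23 to 0.27, adjusted p = 0.15 to 0.166), and with DESeq2's Wald test, no count filter or only the groups compared (adjusted p = 0.0659 to 0.227). Cdkn2d gained a call without antimycin library 2 (0.34, adjusted p = 0.0482). For oligomycin in myotubes, the Ccne2 call was lost without DMSO library 1 or oligomycin library 2 or 3 (-0.77 to -0.65, adjusted p = 0.0552 to 0.0919). That for Cdkn2d was lost without DMSO library 1 or oligomycin library 1 (-0.31 to -0.29, adjusted p = 0.0554 to 0.0658). The Cdkn2c call for BAM15 in myotubes was lost without BAM15 library 3 (0.46, adjusted p = 0.0613), and with no count filter or a well term (adjusted p = 0.0577 to 0.171).

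**Figure D5:**
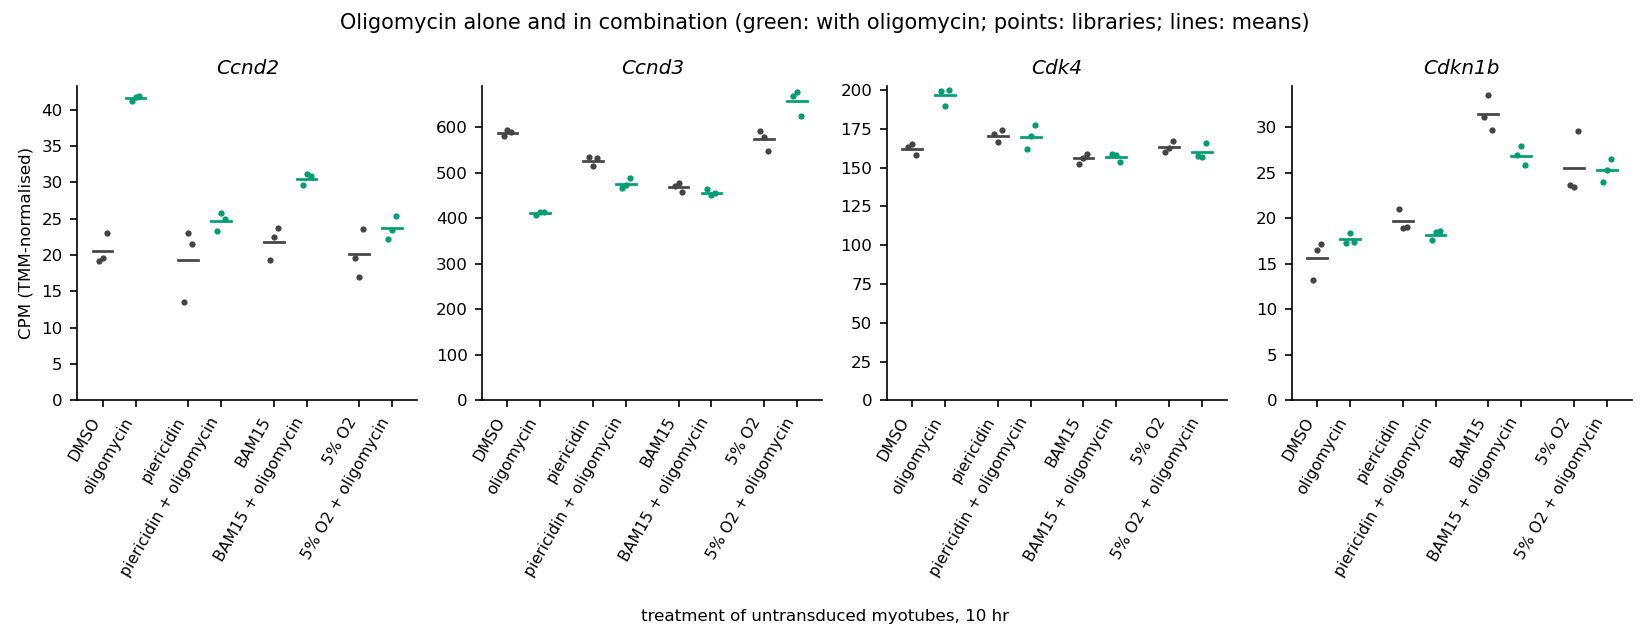
Levels in CPM (y axis) of Ccnd2, Ccnd3, Cdk4 and Cdkn1b in untransduced myotubes under DMSO, piericidin, BAM15 or 5% oxygen, each without (gray) and with oligomycin (green) along the x axis, with points for libraries and short lines for means. Ccnd2 averaged 41.6 CPM with oligomycin, 24.7 with piericidin added, 30.5 with BAM15 added and 23.7 in 5% oxygen.

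Oligomycin was then combined with agents that lower the proton gradient or limit respiration. Adding piericidin to oligomycin changed 4 of the 10 members (2 higher and 2 lower), against 20.9% of all genes tested. Adding BAM15 changed 8 of the 10 members (4 higher and 4 lower), against 26.1% of all genes tested, and 5% oxygen 6 of the 10 members (3 higher and 3 lower), against 33.3% of all genes tested. Ccnd2 measured 41.25, 41.7 and 41.8 CPM with oligomycin, 23.3, 25.8 and 25 with piericidin added, 29.6, 31.1 and 30.8 with BAM15 added and 22.2, 23.5 and 25.4 in 5% oxygen. Every combination was below oligomycin alone (log2 fold change -0.76 ± 0.13, edgeR adjusted p = 7.08e-05, -0.45 ± 0.12, adjusted p = 0.00784 and -0.80 ± 0.13, adjusted p = 2.22e-05). Ccnd3 rose when 5% oxygen was added, from 407.5, 415 and 413 to 669, 677 and 625 CPM (0.69 ± 0.034, adjusted p = 4.47e-14), and by 0.20 ± 0.034 and 0.15 ± 0.034 with piericidin and BAM15. With BAM15 added, Cdkn1b went from 17.3, 18.4 and 17.4 to 27, 27.9 and 25.8 CPM (0.60 ± 0.097, adjusted p = 3.95e-05). For piericidin added to oligomycin in myotubes, the Cdk6 call was gained without piericidin and oligomycin library 3 (-0.36, adjusted p = 0.0277). Cdkn2c gained a call without oligomycin library 1 (0.53, adjusted p = 0.03). The Ccnd3 call for BAM15 added to oligomycin in myotubes was lost with no count filter (adjusted p = 0.0839). That for Cdkn2c was lost without BAM15 and oligomycin library 3 or oligomycin library 2 (0.45 to 0.46, adjusted p = 0.0613 to 0.0624), and with no count filter or only the groups compared (adjusted p = 0.0866 to 0.146). For 5% oxygen added to oligomycin in myotubes, the Ccne1 call was lost without 5% oxygen and oligomycin library 2 or oligomycin library 2 (-0.64 to -0.58, adjusted p = 0.0542 to 0.0606). Cdkn2c lost its call without 5% oxygen and oligomycin library 1 or 3 or oligomycin library 2 or 3 (0.30 to 0.44, adjusted p = 0.0762 to 0.208), and with DESeq2 size factors, DESeq2's Wald test, no count filter or only the groups compared (adjusted p = 0.0531 to 0.435). A Cdkn2d call was gained with a well term (adjusted p = 0.0445).

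Seen from the other side, oligomycin within 5% oxygen changed 2 of the 10 members (2 higher), against 4.26% of all genes tested. Here Ccnd3 rose (log2 fold change 0.21 ± 0.034, edgeR adjusted p = 0.000234), from 592, 579.8 and 549 to 669, 677 and 625 CPM. In comparisons added after the data were seen, oligomycin within piericidin changed 1 of the 10 members (1 lower), against 1.19% of all genes tested, with Ccnd3 at -0.15 ± 0.034. Within BAM15 it changed 0 of the 10 members, against 1.70% of all genes tested, with 3 members at an unadjusted p under 0.05 and 0 called by DESeq2. Ccnd2 there was 0.48 ± 0.13 (edgeR adjusted p = 0.0583). The Cdk6 call for oligomycin within 5% oxygen in myotubes was lost without 5% oxygen library 2 or 3 or 5% oxygen and oligomycin library 1 or 2 (0.36 to 0.44, adjusted p = 0.0559 to 0.122), and with only the groups compared (adjusted p = 0.0717). For oligomycin within piericidin in myotubes, the Ccnd3 call was lost without piericidin and oligomycin library 1 or 2 or piericidin library 1 or 3 (-0.14, adjusted p = 0.0783 to 0.105), and with no count filter or only the groups compared (adjusted p = 0.109 to 0.254). The Ccnd2 call for oligomycin within BAM15 in myotubes was gained with no count filter, a well term or a replicate block (adjusted p = 0.00818 to 0.0392).

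The interaction terms, added at the same time, ask whether the oligomycin response itself differed. With piericidin it differed for 3 of the 10 members (1 higher and 2 lower), against 14.6% of all genes tested. It differed with BAM15 for 4 of the 10 members (1 higher and 3 lower), against 18.6% of all genes tested, and in 5% oxygen for 3 of the 10 members (1 higher and 2 lower), against 17.4% of all genes tested. The response of Ccnd2 was lower in each case (-0.70 ± 0.18, -0.54 ± 0.18 and -0.76 ± 0.18), with edgeR adjusted p = 0.00987, 0.039 and 0.00436. Ccnd3 had a higher one (0.36 ± 0.048, 0.47 ± 0.048 and 0.73 ± 0.048), and Cdk4 a lower one (-0.30, -0.28 and -0.29). For the oligomycin response of myotubes with piericidin against without, the Ccnd2 call was lost without piericidin library 2 (-0.56, adjusted p = 0.0507). Cdk4 lost its call with no count filter (adjusted p = 0.0707). A Ccne2 call was gained without oligomycin library 1 (1.16, adjusted p = 0.0416). Cdkn2d gained a call with a well term (adjusted p = 0.0237). The Ccnd2 call for the oligomycin response of myotubes with BAM15 against without was lost without BAM15 library 2 or 3, DMSO library 1 or 2, BAM15 and oligomycin library 1, 2 or 3 or oligomycin library 1, 2 or 3 (-0.55 to -0.48, adjusted p = 0.0526 to 0.0982), and with a well term (adjusted p = 0.145). That for Cdk4 was lost with no count filter (adjusted p = 0.0867). Cdkn1b lost its call without BAM15 library 2, DMSO library 1, BAM15 and oligomycin library 1 or 3 or oligomycin library 1, 2 or 3 (-0.43 to -0.30, adjusted p = 0.0538 to 0.122), and with DESeq2's Wald test, no count filter, only the groups compared or a well term (adjusted p = 0.0797 to 0.322). A Cdkn2d call was gained with a well term (adjusted p = 0.0254). For the oligomycin response of myotubes in 5% oxygen against ambient oxygen, the Ccne2 call was gained without oligomycin library 1 (1.16, adjusted p = 0.0427).

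In transduced myotubes, oligomycin changed 5 of the 10 members (1 higher and 4 lower), against 25.9% of all genes tested, in the GFP set and 5 of the 10 members (3 higher and 2 lower), against 32.0% of all genes tested, in the LbNOX set. Markers of other cell types without Tubb3 summed to 4.44 to 4.59 CPM under DMSO and 6.03 to 6.74 with oligomycin in the GFP set. In the LbNOX set they summed to 2.01 to 4.94 and 5.47 to 6.64. With Tubb3 the sums were 28.7 to 32.5 and 30.1 to 30.5 with GFP, and 29 to 34.3 and 29.7 to 34.8 with LbNOX. The part of these transcripts was not tested. Ccnd2 went from 19 and 16.7 to 41.7 and 37.9 CPM with GFP (log2 fold change 1.14 ± 0.11, edgeR adjusted p = 2.79e-06) and from 17.4, 15.2 and 15.3 to 38.9, 40.03 and 35.6 with LbNOX (1.25 ± 0.091, adjusted p = 9.69e-08). It rose without overlap in both sets. Ccnd3 fell in both (-0.53 ± 0.07 with GFP and -0.50 ± 0.057 with LbNOX), and so did Cdkn2d (-0.50 ± 0.11 and -0.84 ± 0.093). Piericidin changed 0 of the 10 members, against 3.09% of all genes tested, with GFP and 0 of the 10 members, against 6.78% of all genes tested, with LbNOX, with 1 member at an unadjusted p under 0.05 and 0 called by DESeq2 in each. LbNOX against GFP differed under DMSO in 0 of the 10 members, against 0.0242% of all genes tested. The responses of the sets differed for 0 of the 10 members, against 0% of all genes tested, with piericidin, and for 0 of the 10 members, against 0% of all genes tested, with oligomycin. At an unadjusted p under 0.05 these last 3 comparisons held 1, 0 and 2 members, and DESeq2 called 0 in each. The Ccne1 call for oligomycin in GFP myotubes was lost without DMSO GFP library 1 or 2 or oligomycin GFP library 1 (-0.66 to -0.45, adjusted p = 0.0565 to 0.177), and with DESeq2's Wald test, no count filter or only the groups compared (adjusted p = 0.062 to 0.108). Ccne2 lost its call without DMSO GFP library 1 or oligomycin GFP library 1 or 2 (-0.98 to -0.34, adjusted p = 0.0756 to 0.501), and with DESeq2's Wald test, no count filter, only the groups compared or a well term (adjusted p = 0.0527 to 0.147). That for Cdkn2d was lost without DMSO GFP library 2 (-0.32, adjusted p = 0.0802), and with only the groups compared (adjusted p = 0.0775). For oligomycin in LbNOX myotubes, the Cdk6 call was lost without DMSO LbNOX library 1 or 2 or oligomycin LbNOX library 1 or 3 (0.21 to 0.27, adjusted p = 0.059 to 0.131), and with DESeq2's Wald test, no count filter or a replicate block (adjusted p = 0.0568 to 0.122). The Ccnd3 call for piericidin in LbNOX myotubes was gained with no count filter or only the groups compared (adjusted p = 0.0152 to 0.0493).

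The responses of myotubes and control myoblasts to the same inhibitor differed for piericidin in 9 of the 10 members (7 higher and 2 lower), against 46.5% of all genes tested. For antimycin they differed in 9 of the 10 members (8 higher and 1 lower), against 47.9% of all genes tested, and for oligomycin in 8 of the 10 members (7 higher and 1 lower), against 29.0% of all genes tested. The response of Ccne1 was less negative in myotubes by 2.54 ± 0.22, 2.43 ± 0.22 and 1.15 ± 0.21 with the 3 inhibitors (edgeR adjusted p = 1.31e-10, 2.44e-10 and 0.000116). For Cdkn2d the differences were 1.16 ± 0.15, 1.98 ± 0.16 and 1.08 ± 0.15. The Ccnd2 log2 fold change was lower in myotubes than in myoblasts with piericidin (-1.61 ± 0.15, adjusted p = 5.26e-10) and oligomycin (-0.72 ± 0.14, adjusted p = 0.000354), while for antimycin the difference was -0.06 ± 0.15, adjusted p = 0.765. Removal of 1 replicate number took out that library in every condition. For the piericidin response of myotubes against control myoblasts, the Cdk4 call was lost with no count filter (adjusted p = 0.114). Cdkn1b lost its call without all libraries numbered 3 (0.51, adjusted p = 0.108). That for Cdkn2c was lost without all libraries numbered 3 (0.91, adjusted p = 0.128). The Cdk4 call for the antimycin response of myotubes against control myoblasts was lost without all libraries numbered 1 or 2 (-0.20 to -0.16, adjusted p = 0.0646 to 0.0969), and with no count filter or a well term (adjusted p = 0.0849 to 0.205). Cdk6 lost its call without all libraries numbered 2 (0.31, adjusted p = 0.112). That for Cdkn2c was lost without all libraries numbered 1 or 2 (0.99 to 1.01, adjusted p = 0.057 to 0.0619), and with a well term (adjusted p = 0.17). For the oligomycin response of myotubes against control myoblasts, the Ccnd1 call was lost without all libraries numbered 2 or 3 (0.23 to 0.30, adjusted p = 0.143 to 0.313), and with no count filter or a well term (adjusted p = 0.174 to 0.222). Ccnd2 lost its call without all libraries numbered 3 (-0.58, adjusted p = 0.0615). That for Cdk4 was lost without all libraries numbered 1 or 3 (0.20 to 0.23, adjusted p = 0.0543 to 0.0629), and with no count filter (adjusted p = 0.111). Cdkn2c lost its call without all libraries numbered 2 or 3 (0.91 to 1.04, adjusted p = 0.121 to 0.125), and with no count filter or a well term (adjusted p = 0.0689 to 0.297).

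Mean levels of the members moved together in part. Over the 13 myoblast conditions of the 10 hr treatments, Pearson's r of log2 CPM (pseudocount 1) was 0.97 for Ccne1 and Ccne2, 0.96 for Ccnd1 and Ccne2, 0.94 for Ccnd3 and Ccne1, 0.95 for Cdkn1b and Cdkn2d, 0.84 for Ccnd1 and Ccnd3, and -0.81 for Ccnd2 and Ccnd3. Over all 35 conditions, which span the cell states, the sign for Ccnd1 and Ccnd3 was the opposite, with r = -0.88, and that for Ccnd2 and Ccnd3 was -0.91. Conditions share the cell line and, within a line, the DMSO libraries behind each response, so these values are descriptions. Among 11980 other genes, the likest to Ccne1 over the 13 conditions were Eif5a2 (0.992), Fam111a (0.991) and Cbx6 (0.989), and those likest to Ccne2 were Tipin (0.993), Dck (0.993) and Fam111a (0.987). Ccnd2 was nearest to Tbce (0.975), Ncam1 (0.970) and Ttc27 (0.968). For Ccnd3 the nearest were Nfic, Cep164 and Chaf1b at 0.988 each. Cdkn2d was nearest to Ccnf (0.971), with E2f8 also among its 3 nearest, and Cdkn1b to Kmt2e (0.969), Ppme1 (0.961) and the member Cdkn2d (0.955). The nearest genes were March2 (0.971) for Ccnd1, Use1 (0.960) for Cdk4, Sf3b3 (0.970) for Cdk6 and Sesn1 (0.970) for Cdkn2c. Over all 35 conditions the gene likest to Ccne1 was Fam111a (0.996), that likest to Ccne2 Dck (0.982), and that likest to Ccnd3 Cand2 (0.990).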

How the data were processed

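Smart-seq2 libraries of 96 C2C12 samples were quantified by the authors with kallisto (0.44 in the submitters' processing notes) against GRCm38 transcripts and the transgenes and summed to genes. The deposited values are their estimated counts per gene, whole numbers without normalization, in a table of 54146 mouse genes and 4 transgenes, whose totals ran from 6458295 to 15366745 per sample. These libraries do not mark strand.

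Groups and replicate numbers came from the sample labels. A gene entered a model if 1 or more of its conditions had 16 or more counts in all replicates, and edgeR 4.0.16 (R 4.3.3, limma 3.58.1) was run on the counts as deposited with TMM scaling, the quasi-likelihood F test and Benjamini-Hochberg adjustment within each comparison at 0.05. There were 6 models over 37, 8, 27, 15, 9 and 33 samples and 55 comparisons, 7 of them added after the data were seen. Standard errors are the absolute log2 fold change over the square root of F. Displayed levels are CPM with TMM over all samples. Simulated counts for piericidin in control myoblasts (11526 genes) returned 50 of 98 genes changed by 0.5 on the log2 scale, 69 of 93 changed by 1, and 9 false calls. Of 87 replicate pairs 0 were identical.

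The members and lists were chosen with earlier results of these data known. Genes named are the 10 members, the called G1 to S partners ranked by size of change (up to 3 higher and 3 lower), Cdkn1a and Cdk2, and the 3 genes likest to each member by Pearson correlation. Alternatives were DESeq2 1.42.0 (size factors in edgeR, or its Wald test), no count filter, replicate number as a block, outer or inner well as a term, modelling only the groups compared, and leaving out each library. In the model of states each replicate number was left out instead of each library. Loci came from GENCODE and promoters from RefSeq. Tables were read with Python 3.11.15.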

Additional observations from a re-analysis of the deposited data

Results flagged for a closer look

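The entries here are member responses to one agent that differed between 2 backgrounds by an edgeR interaction term (adjusted p under 0.05). Each value is the log2 fold change in the background named first minus that in the one named second, and comparisons of one line or state share libraries. In the piericidin response of LbNOX myoblasts against control myoblasts, the difference was 0.84 for Ccnd1, -1.23 for Ccnd2, 1.31 for Ccnd3, -0.14 for Cdk4, 2.41 for Ccne1, 1.73 for Ccne2 and 0.66 for Cdkn2d. The antimycin response of LbNOX myoblasts against control myoblasts differed by 1.58 for Ccnd1, -0.37 for Ccnd2, 1.04 for Ccnd3, -0.57 for Cdk6, 2.99 for Ccne1, 3.16 for Ccne2, 1.04 for Cdkn2c and 0.70 for Cdkn2d. For the oligomycin response of LbNOX myoblasts against control myoblasts, the values were 0.48 for Ccnd3, -0.29 for Cdk6, 0.74 for Ccne1 and 0.95 for Ccne2. In the piericidin response of mitoLbNOX myoblasts against control myoblasts, the difference was 0.79 for Ccnd1, -0.54 for Ccnd2, 1.17 for Ccnd3, -0.22 for Cdk4, 2.43 for Ccne1, 1.58 for Ccne2 and 0.43 for Cdkn2d. The antimycin response of mitoLbNOX myoblasts against control myoblasts differed by 0.86 for Ccnd1, -0.27 for Cdk6, 1.59 for Ccne1 and 1.94 for Ccne2. For the piericidin response of NDI1 myoblasts against control myoblasts, the values were 0.80 for Ccnd1, -1.60 for Ccnd2, 1.60 for Ccnd3, -0.28 for Cdk4, 2.73 for Ccne1, 1.81 for Ccne2 and 1.02 for Cdkn2d. In the piericidin response of mitoLbNOX myoblasts against LbNOX myoblasts, the difference was 0.69 for Ccnd2. The antimycin response of mitoLbNOX myoblasts against LbNOX myoblasts differed by -0.73 for Ccnd1, 0.53 for Ccnd2, -0.82 for Ccnd3, 0.30 for Cdk6, -1.41 for Ccne1, -1.21 for Ccne2 and -1.07 for Cdkn2d.

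For the oligomycin response of myotubes with piericidin against without, the values were -0.70 for Ccnd2, 0.36 for Ccnd3 and -0.30 for Cdk4. In the oligomycin response of myotubes with BAM15 against without, the difference was -0.54 for Ccnd2, 0.47 for Ccnd3, -0.28 for Cdk4 and -0.41 for Cdkn1b. The oligomycin response of myotubes in 5% oxygen against ambient oxygen differed by -0.76 for Ccnd2, 0.73 for Ccnd3 and -0.29 for Cdk4. For the piericidin response of myotubes against control myoblasts, the values were 0.76 for Ccnd1, -1.61 for Ccnd2, 1.29 for Ccnd3, -0.19 for Cdk4, 2.54 for Ccne1, 1.35 for Ccne2, 0.69 for Cdkn1b, 1.14 for Cdkn2c and 1.16 for Cdkn2d. In the antimycin response of myotubes against control myoblasts, the difference was 1.10 for Ccnd1, 1.05 for Ccnd3, -0.19 for Cdk4, 0.44 for Cdk6, 2.43 for Ccne1, 1.67 for Ccne2, 1.14 for Cdkn1b, 1.17 for Cdkn2c and 1.98 for Cdkn2d. The oligomycin response of myotubes against control myoblasts differed by 0.33 for Ccnd1, -0.72 for Ccnd2, 0.55 for Ccnd3, 0.24 for Cdk4, 1.15 for Ccne1, 1.10 for Cdkn1b, 1.06 for Cdkn2c and 1.08 for Cdkn2d.

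Single agents were also compared between the 36 pairs of backgrounds that had no interaction test. Every member was looked at in each of these pairs. In 24 cases of a member and a pair, all treated libraries lay on one side of their controls in one background and on the other side in the other. These differences were not tested, and the same count was not made over all genes. With 2 or 3 libraries in a group such separation can arise by chance, so the count alone does not show opposite responses. The piericidin values below from NDI1 myoblasts, GFP and LbNOX myotubes and 24 hr low-serum cells did not pass the edgeR test. The log2 fold change of Ccnd3 with piericidin was 0.20 in NDI1 myoblasts, against -0.092 in LbNOX myoblasts, -0.23 in mitoLbNOX myoblasts, -0.15 in myotubes, -0.095 in GFP myotubes and -0.15 in LbNOX myotubes. With piericidin, Cdkn1b had 0.33 in myotubes and 0.10 in 24 hr low-serum cells, against -0.26 in mitoLbNOX myoblasts. The log2 fold change of Cdkn2c with piericidin was 0.25 in LbNOX myotubes, against -0.68 in control myoblasts and -0.29 in LbNOX myoblasts. In myotubes it was 0.42, against the same -0.29 in LbNOX myoblasts. With piericidin, Cdkn2d had 0.16 in myotubes, against -0.29 in LbNOX myoblasts, -0.52 in mitoLbNOX myoblasts, -0.16 in LbNOX myotubes and -0.15 in 24 hr low-serum cells. The log2 fold change of Ccne2 with antimycin was 0.37 in LbNOX myoblasts, against -1.16 in myotubes. With antimycin, Cdkn1b had 0.34 in myotubes, against -0.53 in LbNOX myoblasts and -1.11 in mitoLbNOX myoblasts. The log2 fold change of Cdkn2d with antimycin was 0.26 in myotubes, against -0.97 in LbNOX myoblasts and -2.04 in mitoLbNOX myoblasts. With oligomycin, Cdk6 had 0.19 in myotubes and 0.25 in LbNOX myotubes, against -0.14 in LbNOX myoblasts. The log2 fold change of Cdkn1b with oligomycin was 0.18 in myotubes, against -0.59 in LbNOX myoblasts, -0.25 in GFP myotubes and -0.27 in LbNOX myotubes. Groups held 2 or 3 libraries, too few to test whether 1 library stood apart.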

How the results depend on the processing

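Of the 550 member tests 246 passed the threshold, and 0 reversed under any alternative run. Of those 246 calls 243 were kept with DESeq2 size factors, 236 with the DESeq2 Wald test (515 tests), 211 without the count filter and 230 when only the groups compared were modelled. With the outer or inner well as a term 228 of 241 were kept. Leaving out single libraries, or all libraries of 1 replicate number in the model of states, kept 1463 of 1627. No alternative moved the median of all genes by more than 0.0735 on the log2 scale. The well term could not be fitted in 24 hr low-serum cells, so both of those comparisons were not run with it. Of 60 alternative member levels 8 moved by more than 1 SD.

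Numbers of members called that moved by over 1.5 times were as follows. Without the filter the count was 1 for piericidin in myotubes (2 in the report), 0 for oligomycin within piericidin (1), 1 for oligomycin within BAM15 (0), 2 for the oligomycin response with BAM15 against without (4), 3 for oligomycin in GFP myotubes (5), 1 for piericidin in LbNOX myotubes (0), 1 for piericidin in 24 hr cells (0) and 5 for the oligomycin response of myotubes against control myoblasts (8). With only the groups compared it was 0 for mitoLbNOX against control under DMSO (1), 1 for piericidin in myotubes, 1 for oligomycin in 5% oxygen (2), 0 for oligomycin within piericidin, 2 for oligomycin in GFP myotubes, 1 for piericidin in LbNOX myotubes and 1 for piericidin in 24 hr cells. DESeq2's Wald test gave 3 in GFP myotubes and 1 for piericidin in myotubes, as did DESeq2 size factors and the well term for piericidin, and the well term gave 1 within BAM15. The cause was not tested.

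With single libraries left out the counts ran from 5 to 8 for antimycin in LbNOX myoblasts, 3 to 4 for piericidin in mitoLbNOX myoblasts, 0 to 1 for LbNOX and for mitoLbNOX against control under DMSO, 1 to 2 for chloramphenicol in control and 0 to 0 in LbNOX myoblasts, 1 to 2 for piericidin, 2 to 5 for antimycin and 3 to 5 for oligomycin in myotubes, 1 to 2 for oligomycin in 5% oxygen, 0 to 1 within piericidin, 2 to 4 for the oligomycin response with BAM15 against without, and 3 to 4 in GFP myotubes. With all libraries of 1 replicate number left out, the count ran from 4 to 7 for the oligomycin response of myotubes against control myoblasts.

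No label ties same-numbered samples to a shared culture or batch, so the numbers were not taken to pair the samples in the main tests. The mean correlation of deviations between same-numbered samples was -0.0458 to 0.0437 across models, and 33 of 96 libraries correlated best with their own number. In the 10 hr myoblast model, where this mean was 0.0437 against -0.0219 for other pairs, 19 of 37 did so, and a share of 0.403 of same-numbered pairs had a correlation over 0.1, against 0.233 of other pairs. With the replicate block 243 of 246 calls were kept and 6 were gained, and the count of members called moved to 1 for piericidin in myotubes, 1 for oligomycin within BAM15 and 1 for piericidin in 24 hr cells. In the simulated data for piericidin in control myoblasts 50 of 98 changes of 0.5 on the log2 scale were called. Far fewer genes were changed there than the 61.7% called in the data, which makes the adjusted threshold stricter. The share therefore does not measure how many changes of this size were missed here.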

Other observations

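For single treatments other than those of 10 hr control myoblasts and transduced myotubes, the other G1 to S genes and the S phase genes that edgeR called higher and lower were counted, beside the shares of all genes tested called higher and lower. In mitoLbNOX myoblasts antimycin gave 3 higher and 13 lower of 24 G1 to S genes and 1 higher and 22 lower of 24 S phase genes (24.8% and 22.9% of all genes). In LbNOX myoblasts it gave 2 higher and 3 lower of 24 G1 to S genes and 6 higher and 4 lower of 24 S phase genes (23.3% and 22.9% of all genes). Oligomycin in LbNOX myoblasts gave 3 higher and 8 lower of 24 G1 to S genes and 0 higher and 18 lower of 24 S phase genes (17.5% and 17.7% of all genes). Piericidin in LbNOX myoblasts gave 1 higher and 2 lower of 24 G1 to S genes and 0 higher and 11 lower of 24 S phase genes (5.01% and 3.86% of all genes). In mitoLbNOX myoblasts it gave 1 higher and 2 lower of 24 G1 to S genes and 1 higher and 9 lower of 24 S phase genes (6.37% and 4.82% of all genes). In NDI1 myoblasts, with 2 libraries in a group, it gave 0 higher and 0 lower of 24 G1 to S genes and 0 higher and 0 lower of 24 S phase genes (0.00835% and 0% of all genes). Chloramphenicol in control myoblasts gave 2 higher and 4 lower of 24 G1 to S genes and 0 higher and 10 lower of 24 S phase genes (4.83% and 3.62% of all genes). In LbNOX myoblasts chloramphenicol gave 0 higher and 0 lower of 24 G1 to S genes and 0 higher and 0 lower of 24 S phase genes (0.675% and 0.256% of all genes). In 24 hr low-serum cells oligomycin gave 2 higher and 8 lower of 25 G1 to S genes and 0 higher and 17 lower of 23 S phase genes (10.6% and 10.1% of all genes). Piericidin in those cells gave 0 higher and 2 lower of 25 G1 to S genes and 0 higher and 2 lower of 23 S phase genes (1.39% and 1.36% of all genes). In myotubes piericidin gave 0 higher and 3 lower of 25 G1 to S genes and 0 higher and 2 lower of 23 S phase genes (4.15% and 4.84% of all genes). Antimycin there gave 0 higher and 6 lower of 25 G1 to S genes and 0 higher and 13 lower of 23 S phase genes (6.64% and 6.27% of all genes). Oligomycin there gave 1 higher and 7 lower of 25 G1 to S genes and 1 higher and 6 lower of 23 S phase genes (16.9% and 16.4% of all genes). BAM15 gave 4 higher and 6 lower of 25 G1 to S genes and 0 higher and 16 lower of 23 S phase genes (13.2% and 12.2% of all genes). Exposure to 5% oxygen gave 3 higher and 6 lower of 25 G1 to S genes and 0 higher and 23 lower of 23 S phase genes (12.3% and 9.78% of all genes). The S phase medians were -0.60 with BAM15 and -1.38 in 5% oxygen, against 0.02 and 0.02 over all genes tested.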
